A study of Mus musculus with 6 samples.

Results

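The cell cycle genes described here are 10 of the 55450 genes in the deposited tables: the D-type cyclin genes Ccnd1, Ccnd2 and Ccnd3, the E-type cyclin genes Ccne1 and Ccne2, the kinase genes Cdk2, Cdk4 and Cdk6, and the pocket protein genes Rb1 and Rbl1. They were taken by symbol after the gene identifiers had been matched to GENCODE M21. Polyadenylated RNA was sequenced from mouse embryonic stem cells, which were labelled as C57BL6, as coming from the E3.5 embryo, and as grown in mES+2i medium, where 2i stands for a pair of kinase inhibitors that block the MEK-ERK pathway and GSK3. The 3 libraries of the knockout group came from Hoxd12-/- cells, and the 3 libraries of the control group came from wild-type cells. Strain, stage and medium were the same in both. Neither the way the deletion was made nor the number of clones or cultures behind a group is given in the sources used here, so the p-values rest on library-to-library spread alone, part or all of which may be technical.

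Progress from G1 into S phase is driven by D-type cyclins, which bind Cdk4 or Cdk6, and by E-type cyclins, which bind Cdk2. These kinases phosphorylate the retinoblastoma protein (encoded by Rb1) and its relative p107 (encoded by Rbl1), which then release E2F transcription factors, and E2F factors switch on genes for DNA replication. Mouse embryonic stem cells are known for a short G1 phase, for high cyclin E with Cdk2 activity and for low levels of D-type cyclins compared with differentiated cells.

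Library totals ran from 5412577 to 6280934 expected counts, and 3 counts correspond to 0.462 to 0.567 CPM (counts divided by library sizes scaled by TMM), a limit for counting error only. Hoxd12 had 0 counts in all 6 libraries, so its transcript gives no check of the labels. All 8 stem cell markers were tested, with summed levels of 8200 to 8722 CPM in the knockout and 8097 to 8723 CPM in wild type; Zfp42 was called higher (in 16 of 16 alternatives) and Nanog lower (in 13). Of the 8 fibroblast markers 4 were at 0 counts everywhere (Col3a1, Dcn, Lum and Postn). The summed level of all 8 was 7.19 to 11.1 CPM in the knockout and 12.1 to 16.9 CPM in wild type, so it moved with the genotype. Single genes showed no overlap in 39.7% of all those tested. Most of this sum was Pdgfrb (mean 6.48 CPM in wild type, 4.75 in the knockout, not called) and Thy1 (5.89 and 2.96). It thus says little about the other markers, of which Col1a1 and Col1a2 were below the count filter. Thy1 was called lower (in 13 of 16 alternatives, not on either TPM scale or without knockout replicate 1). Of the 8 primitive endoderm markers Sox7 was at 0, and the sums were 28.7 to 31.1 CPM in the knockout and 25.3 to 33.9 CPM in wild type, with Gata4 called higher (in 9 of 16 alternatives, and not with DESeq2, adjusted p = 0.0915). Most of the endoderm sum was Lama1 (mean 24.8 CPM in wild type, 21.8 in the knockout), so that sum says little about the other markers. Among these, Gata4 (2.11 and 4.46 CPM) and Dab2 (0.856 and 2.12, below the count filter) had higher means in the knockout. Pdgfra (2 to 7 counts per library) and Foxa2 (0 or 1) did too, while Gata6 (3 to 6) and Sox17 (1 to 8) had lower ones. These genes were below the count filter and were not tested, so their directions rest on a few counts. Dppa5a and Pou5f1 likewise made up most of the stem cell sum (5162 and 1842 CPM in wild type). The part of these markers in the results was not tested. In these bulk samples, fewer cells in a phase or state and less RNA per cell cannot be told apart.

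All 10 genes passed the filter on low counts. Compared with wild type, 4 of them were called lower in the knockout and 0 higher (quasi-likelihood test of edgeR, p adjusted by Benjamini-Hochberg to below 0.05). Those called were 3 cyclin genes, Ccnd1, Ccnd3 and Ccne1, and the kinase gene Cdk6. Among all 12891 genes tested, 26.5% were called, 14.4% lower and 12.1% higher, so calls were common throughout the transcriptome. Of all calls, 45.6% were higher with edgeR, 35.3% with DESeq2 and 59.6% with limma on log2(TPM + 1), fits that differ in more than one choice. DESeq2 called the 3 cyclin genes lower and 0 of the 10 higher, against 15.4% of all genes called (9.99% lower, 5.44% higher). On log2(TPM + 1), limma called the same 3 lower and Rb1 higher, against 14.4% of all genes (5.81% lower, 8.59% higher). With a replicate block in edgeR the 3 cyclin genes were called lower, against 26% of all genes (14.3% lower, 11.7% higher). The groups did not overlap in CPM for Ccnd1, Ccnd3, Ccne1, Cdk4, Cdk6 and Rb1, which is 6 of 10, where 39.7% of all tested genes showed no overlap. Of the 6, 5 were lower in the knockout (20% of all genes) and 1, Rb1, was higher (19.6%).

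**Figure D1:**
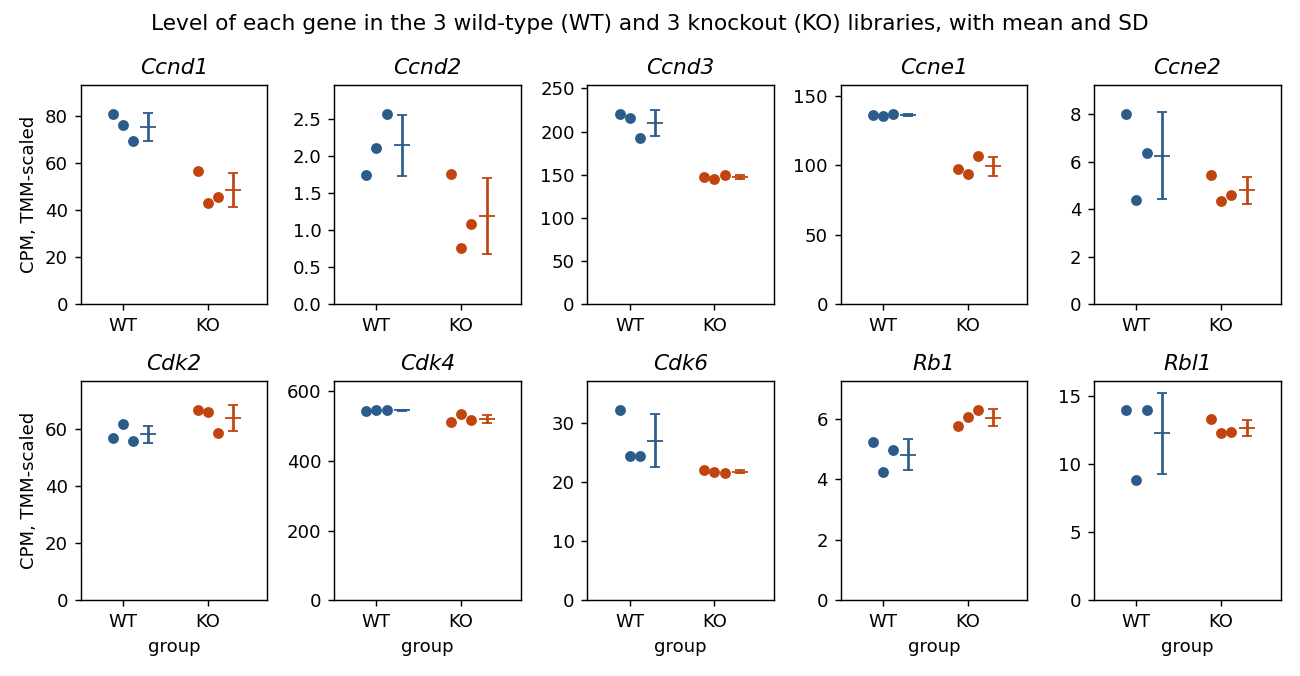
CPM (vertical axes, each starting at 0) of the 10 genes in the 3 wild-type (WT, blue) and 3 knockout (KO, orange) libraries. Points are libraries, and the bar beside them is the mean with its SD; Ccnd1, Ccnd3 and Ccne1 lay lower in every knockout library than in every wild-type library, while Cdk6 was close to the 2 lower wild-type libraries.

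Among the D-type cyclins, which link growth signals to Cdk4 and Cdk6, Ccnd1 (ENSMUSG00000070348, GRCm38 chromosome 7, 144929931 to 144939925, minus strand) had 81.0, 76.1 and 69.3 CPM in the wild-type libraries and 56.5, 42.9 and 45.7 CPM in the knockout libraries. The highest knockout library thus stayed below the lowest wild-type library. The mean fell from 75.5 ± 5.91 to 48.4 ± 7.17 CPM (SD, n = 3), a log2 fold change of -0.64 (SE 0.09, adjusted p = 3.42e-06, edgeR). Within the knockout group, replicate 1 stood above the other libraries, and the fold change was -0.76 without it.

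Ccnd3, the D-type cyclin with the highest level here (ENSMUSG00000034165, chromosome 17, 47505051 to 47599691, plus strand), had 221, 216 and 192 CPM in wild type and 147, 145 and 150 CPM in the knockout. The knockout libraries were close together, and the groups were well apart. The level fell from 209.8 ± 15.4 to 147 ± 2.50 CPM (SD, n = 3). The log2 fold change was -0.51 with an SE of 0.05 (edgeR, adjusted p = 1.59e-09). In the ranking of all 12891 tested genes by p-value, Ccnd3 stood at place 117, Ccne1 at 246 and Ccnd1 at 453.

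Ccnd2 (ENSMUSG00000000184, chromosome 6, 127125162 to 127152193) was near the limit of detection, with 10, 13 and 15 counts in the wild-type libraries and 11, 4 and 7 in the knockout libraries. Its levels overlapped between the groups at 1.75 to 2.58 CPM and 0.756 to 1.76 CPM. The log2 fold change of -0.81 had an SE of 0.44 and an approximate 95% interval from -1.68 to 0.06 (adjusted p = 0.185, edgeR), so a difference was not detectable at this depth. On scales that divide by transcript length the sign turned (0.14 on log2(TPM + 1)).

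Per transcript length, in TPM, the D-type cyclins summed to 130, 121 and 106 TPM in wild type and to 92.4, 83.5 and 93.7 TPM in the knockout. Every knockout library held less than every wild-type library, with means of 119 ± 12.3 and 89.9 ± 5.59 TPM (SD, n = 3), 24.5% lower. In TPM the median tested gene lay higher in the knockout (0.10 on log2(TPM + 1), against 0.02 in edgeR). This shift enters every TPM level compared between the groups here. Ccnd3 made up 82.7% ± 1.7 of that sum in wild type and 84.6% ± 1.57 in the knockout, and Ccnd1 16.9% ± 1.88 and 14.8% ± 1.17 (SD, n = 3). The values of both shares overlapped between the groups, and the shares were not tested.

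Of the E-type cyclins, which activate Cdk2 at the start of S phase, Ccne1 (ENSMUSG00000002068, chromosome 7, 38097984 to 38107534, minus strand) had 136, 135 and 137 CPM in wild type and 97.6, 93.4 and 107 CPM in the knockout. The wild-type libraries were nearly identical, and no knockout library came near them. The mean fell from 136 ± 0.997 to 99.3 ± 6.87 CPM (SD, n = 3), a log2 fold change of -0.45 (SE 0.06, adjusted p = 1.04e-07, edgeR). Ccne2 (ENSMUSG00000028212, chromosome 4, 11191351 to 11204779), the paralogue, had only 27 to 46 counts in wild type and 23 to 34 in the knockout. Its log2 fold change of -0.37 had an approximate 95% interval from -0.85 to 0.11 (adjusted p = 0.287), which holds both no change and the size seen for Ccne1. Ccne1 gave 96.6% ± 0.940 of the summed E-type cyclin TPM in wild type and 96.9% ± 0.384 in the knockout. The sum was 64.1 to 67.6 TPM in wild type and 45.9 to 58.5 TPM in the knockout, 20.5% lower by the means.

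**Figure D2:**
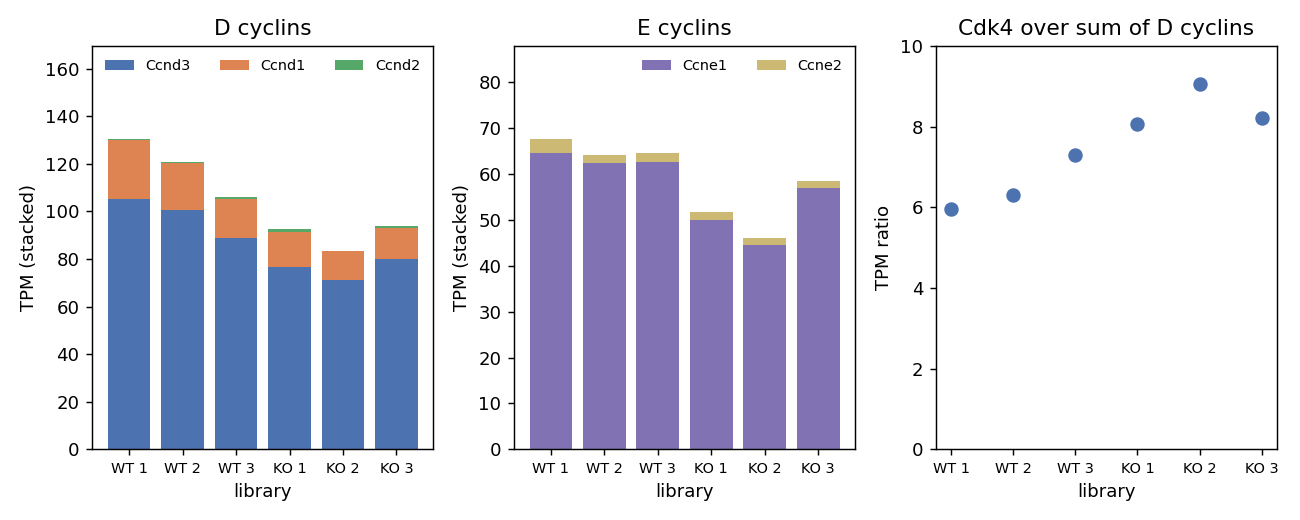
Stacked TPM (vertical axes from 0) of the D-type cyclin genes (left) and E-type cyclin genes (middle) in each library, and the ratio of Cdk4 TPM to the summed D-type cyclin TPM (right). Ccnd3 and Ccne1 make up most of their bars, all 3 knockout bars are below all 3 wild-type bars in both families, and the ratio is 5.95 to 7.30 in wild type and 8.07 to 9.05 in the knockout.

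Of the genes that fell, Ccnd3, Ccne1 and Cdk6 have a start region in the RefSeq promoter table (GRCm38.p6), which matched 6 of the 10 genes with 7 start sites; Ccnd1, Ccnd2, Ccne2 and Rb1 were not matched. The stretches below lie directly upstream of annotated exons and are shown because E2F, the factor that pocket proteins hold back, is known for binding TTTGGCGC, TTTCGCGC, TTTCCCGC or TTTGCCGC, and Sp factors for the GC box GGGCGG. Both strands were searched in the 250 bases before each start. Capitals mark matches to either motif, on either strand. The stretches are, in order, Ccnd3 at its upstream start (chr17:47504801-47505050, plus strand), Ccnd3 at its inner start (chr17:47593217-47593435, plus strand), Ccne1 (chr7:38107535-38107740, minus strand) and Rbl1 (chr2:157204535-157204784, minus strand), and the last is shown for the E2F match.
Ccnd3 upstream start: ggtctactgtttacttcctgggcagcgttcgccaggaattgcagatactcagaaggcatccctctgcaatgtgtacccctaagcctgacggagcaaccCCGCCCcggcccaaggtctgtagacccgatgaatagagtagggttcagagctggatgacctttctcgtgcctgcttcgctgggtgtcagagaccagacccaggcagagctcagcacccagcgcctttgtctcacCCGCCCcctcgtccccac
Ccnd3 inner start: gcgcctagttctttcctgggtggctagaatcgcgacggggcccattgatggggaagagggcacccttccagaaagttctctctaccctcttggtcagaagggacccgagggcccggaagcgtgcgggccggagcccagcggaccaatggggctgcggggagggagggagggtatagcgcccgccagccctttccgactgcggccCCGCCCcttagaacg
Ccne1: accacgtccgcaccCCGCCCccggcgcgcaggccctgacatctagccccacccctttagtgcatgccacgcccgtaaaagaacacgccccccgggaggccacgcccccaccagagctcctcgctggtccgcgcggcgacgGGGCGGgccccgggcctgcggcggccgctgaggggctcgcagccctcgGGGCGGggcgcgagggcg
Rbl1: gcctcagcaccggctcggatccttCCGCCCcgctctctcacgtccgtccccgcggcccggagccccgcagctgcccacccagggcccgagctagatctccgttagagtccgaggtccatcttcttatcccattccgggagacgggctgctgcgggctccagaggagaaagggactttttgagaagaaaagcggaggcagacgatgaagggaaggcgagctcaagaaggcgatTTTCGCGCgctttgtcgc

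An E2F match was present in 1.86% of the 32851 promoter windows of this length in the table. Among the 7 windows of these genes it was present in those of Rbl1 (TTTCGCGC, starting 18 bases before the start site) and Cdk2 (read as GCGGGAAA, starting 140 bases before it), genes that were not called. The windows of Ccnd3, Ccne1, Cdk4 and Cdk6 did not hold these letters. The GC box was present in 32.7% of all windows. It occurred 4 times before Ccne1 (3 of them lie whole within the printed stretch), 5 times before Cdk2, 2 times and 1 time before the Ccnd3 starts, 1 time before Cdk4 and Rbl1, and 0 times before Cdk6. The GC content of the 7 windows ran from 59.6% to 76.0%, above the median of 52.4% over all windows. The letters CTTTGAT, known as a TCF/LEF motif of Wnt signalling, matched 1 window, that of Cdk4, against 3.21% of all windows.

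Of the kinase genes, Cdk4 and Cdk2 were not called. Cdk4, the more abundant of the D-cyclin kinase genes here (ENSMUSG00000006728, chromosome 10, 127063534 to 127067920), had 545, 546 and 548 CPM in wild type and 511, 534 and 517 CPM in the knockout. All knockout libraries lay slightly below the wild-type ones, but the difference was small (log2 fold change -0.07, approximate 95% interval -0.16 to 0.02, adjusted p = 0.260, edgeR). This interval does not reach the estimates for Ccnd1, Ccnd3 and Ccne1. Cdk4 was also the most abundant of the 10 genes per length, with 769 ± 8.83 TPM in wild type and 757 ± 12.7 TPM in the knockout (SD, n = 3).

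The ratio of Cdk4 TPM to the summed D-type cyclin TPM was 6.51 ± 0.700 in wild type and 8.45 ± 0.529 in the knockout (SD, n = 3), without overlap. Cdk4 TPM itself overlapped between the groups, so this ratio mainly restates the lower D-type cyclin sum. It was not tested, and how often such ratios do not overlap was not counted. Cdk2, the partner of cyclin E (ENSMUSG00000025358, chromosome 10, 128697939 to 128705031), had 56.8, 61.6 and 55.9 CPM in wild type and 66.8, 66.0 and 58.5 CPM in the knockout. The groups overlapped through knockout replicate 3, and the log2 fold change was 0.13 (approximate 95% interval -0.01 to 0.28, adjusted p = 0.198, edgeR). Its TPM ratio to the summed E-type cyclins was 0.356 ± 0.0248 in wild type and 0.523 ± 0.0668 in the knockout (SD, n = 3).

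Cdk6, the other D-cyclin kinase (ENSMUSG00000040274, chromosome 5, 3341485 to 3531008), had 32.3, 24.4 and 24.4 CPM in wild type and 22.1, 21.7 and 21.6 CPM in the knockout. One wild-type library, replicate 1, was high, and the others lay just above the knockout. The log2 fold change was -0.31 (SE 0.12), and the adjusted p of 0.0490 from edgeR was barely under the threshold. Without wild-type replicate 1 the fold change was -0.17 (adjusted p = 0.364), and DESeq2 gave adjusted p = 0.182. The call held in 4 of 16 alternatives, so the fall of Cdk6 depended on settings that the falls of Ccnd1, Ccnd3 and Ccne1 passed. Cdk6 supplied 1.14% ± 0.247 of the summed Cdk4 and Cdk6 TPM in wild type and 0.942% ± 0.362 in the knockout.

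**Figure D3:**
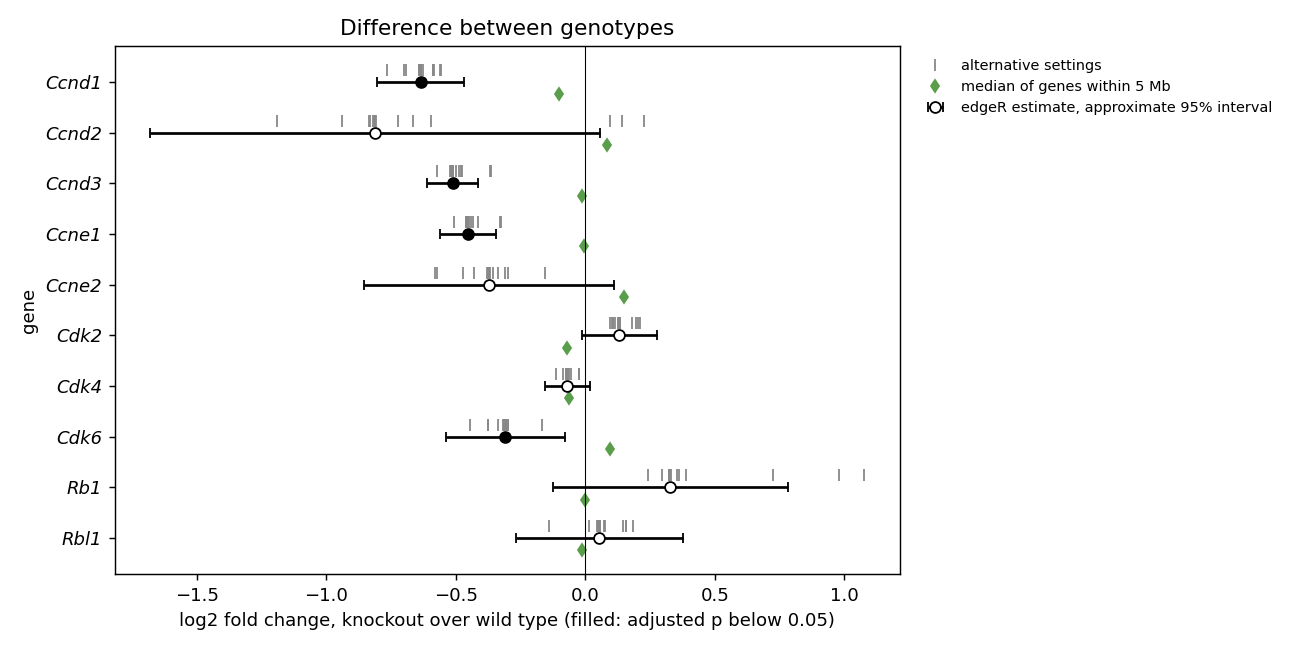
Log2 fold change of each gene, knockout over wild type (horizontal axis): circles are edgeR estimates with approximate 95% intervals, filled where the adjusted p is below 0.05, grey ticks are the 16 alternatives, and green diamonds are the median of tested genes within 5 Mb. The estimates and ticks of Ccnd1, Ccnd3 and Ccne1 are all below 0, whereas those of Ccnd2 and Rbl1 lie on both sides.

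Genes for the pocket proteins, substrates of these kinases, had RNA levels in CPM above those of 20.6% (Rb1) and 37.8% (Rbl1) of all tested genes. Rb1 (ENSMUSG00000022105, chromosome 14, 73183673 to 73325822, minus strand) had 30, 26 and 29 counts in wild type and 36, 32 and 41 in the knockout, or 4.23 to 5.24 CPM and 5.76 to 6.31 CPM. Every knockout library was higher, but at these counts the log2 fold change of 0.33 (SE 0.23, adjusted p = 0.321, edgeR) did not pass the test. In TPM, wild type had 1.72, 0.80 and 1.44 and the knockout 2.99, 2.86 and 2.49. On that scale Rb1 was called higher (0.72 on log2(TPM + 1), adjusted p = 0.0254, limma). An offset for transcript length in edgeR gave 0.98 (adjusted p = 0.0230).

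These scales divide by the abundance-weighted transcript length that each file lists. For Rb1 it was 2832, 4656 and 3072 bases in wild type and 1974, 1981 and 2653 bases in the knockout, with no overlap. GENCODE M21 lists a protein-coding Rb1 transcript of 4656 bases with 27 exons, and 5 shorter ones of 324 to 946 bases that are not annotated as protein-coding. The value of wild-type replicate 2 equals the length of the long form. The exact permutation test on length gave p = 0.1, the smallest that 3 against 3 libraries allow (2-sided; 0.333 after Benjamini-Hochberg adjustment over the 10 genes).

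Rbl1 (ENSMUSG00000027641, chromosome 2, 157145893 to 157204534) had 14.0, 8.80 and 13.9 CPM in wild type and 13.3, 12.3 and 12.3 CPM in the knockout. Its groups overlapped, with 1 low wild-type library, and the log2 fold change was 0.05 (approximate 95% interval -0.27 to 0.38, adjusted p = 0.851, edgeR). The ratio of Rb1 to Rbl1 TPM was 0.317 to 0.396 in wild type and 0.624 to 0.777 in the knockout, a ratio of values that are both divided by length.

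**Figure D4:**
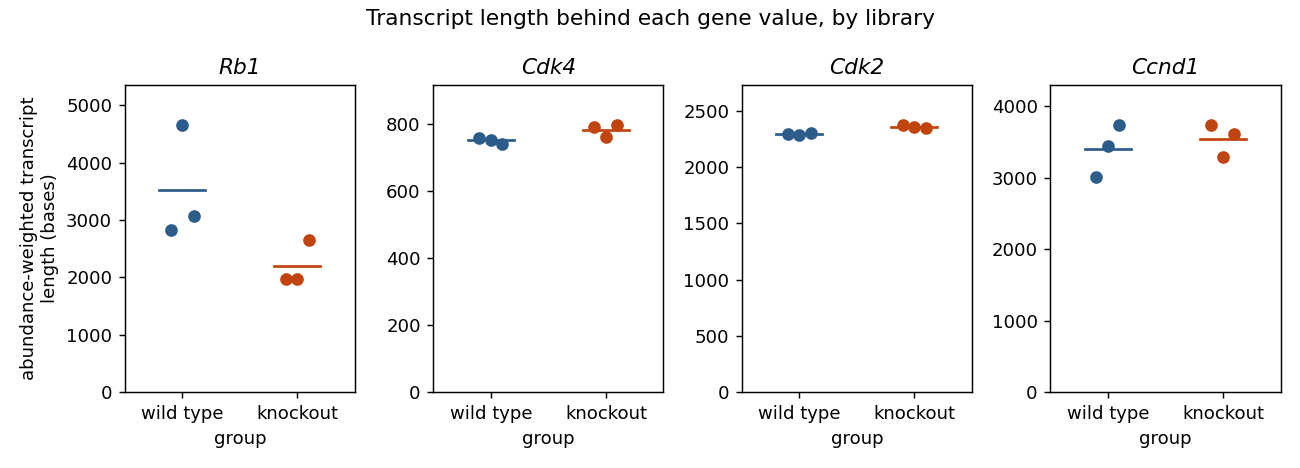
Abundance-weighted transcript length in bases (vertical axes from 0) of Rb1, Cdk4, Cdk2 and Ccnd1 in the wild-type (blue) and knockout (orange) libraries, with lines at the group means. Rb1 is 2832 to 4656 bases in wild type and 1974 to 2653 in the knockout, Cdk4 and Cdk2 are slightly longer in the knockout without overlap, and the Ccnd1 values overlap.

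Of the other genes, Cdk4 lengths were 741 to 758 bases in wild type and 760 to 796 in the knockout, and Cdk2 lengths 2281 to 2300 and 2350 to 2373, each also without overlap and with an exact permutation p = 0.1. The lengths of the remaining 7 genes overlapped (exact permutation p from 0.2 to 1). Among all tested genes 12.5% had lengths that did not overlap, or 14.4% of the 11142 with more than 1 annotated transcript, so 3 of 10 is set against a share of that size and was not tested. For Ccnd1 the range was 3017 to 3740 bases in wild type and 3286 to 3740 in the knockout, and Ccnd1 was also called lower with a length offset (-0.70, adjusted p = 0.00298).

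In wild type the order of levels per length was Cdk4, Ccnd3 (98.3 ± 8.42 TPM), Ccne1 (63.2 ± 1.2), Cdk2 (23.3 ± 1.35), Ccnd1 (20.3 ± 4.28), Cdk6 (8.86 ± 2.02), Rbl1 (3.53 ± 0.927), Ccne2 (2.25 ± 0.688), Rb1 (1.32 ± 0.472) and Ccnd2 (0.407 ± 0.238; SD, n = 3). The ranges given by mean ± SD overlapped for Cdk2 with Ccnd1, Rbl1 with Ccne2, and Ccne2 with Rb1, and did not overlap for the other neighbours. In the knockout Cdk2 (26.9 ± 1.28 TPM) stood clear of Ccnd1 (13.3 ± 1.47 TPM), and Rb1 (2.78 ± 0.259 TPM) stood above Ccne2 (1.61 ± 0.220 TPM).

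Several of these genes overlap another gene on the opposite strand, and whether the authors counted by strand is not given in the sources used here. LTO1 shares 1100 exonic bases with Ccnd1 and fell as well, from 161, 186 and 165 counts in wild type to 92, 113 and 124 in the knockout (log2 fold change -0.66, adjusted p = 8.04e-05, edgeR). Its counts were below those of Ccnd1 in every library. Bysl shares 361 exonic bases with Ccnd3 and fell by 0.36 on the log2 scale (adjusted p = 1.52e-05). Ints8, which overlaps Ccne2, rose (0.24, adjusted p = 0.0484), and Tspan31, which overlaps Cdk4, was not called (0.16, adjusted p = 0.151). Rb1, with 26 to 41 counts, shares 488 exonic bases with Rcbtb2 (24 to 28 counts in wild type, 28 to 41 in the knockout). It shares 408 with Lpar6 (8 to 21 and 11 to 25 counts). Neither was called (0.265, adjusted p = 0.473, and 0.41, adjusted p = 0.484, edgeR). The part of these overlaps in the Rb1 levels and lengths was not tested. For Ccne1 no overlapping gene is annotated. The processed pseudogene Ccnd3-ps had 0 counts in all libraries.

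Neighbouring genes were examined for the members called lower. Within 5 Mb, the median log2 fold change was -0.10 over 74 tested genes around Ccnd1, -0.01 over 84 around Ccnd3, -0.004 over 44 around Ccne1 and 0.09 over 23 around Cdk6. Around Ccnd1, 18 of the 74 neighbours were called lower and 5 higher, and around Ccne1 11 of 44 were lower and 2 higher. The counts were 12 lower and 9 higher of 84 around Ccnd3, and 2 lower and 3 higher of 23 around Cdk6. Over all tested genes 14.4% were lower and 12.1% higher. Over all tested genes the median was 0.02. Ccnd2 lies on chromosome 6, whose median was 0.16, above 0, while its own estimate was below 0.

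Profiles most like those of the fallen cyclins were found by the root mean square distance between log2 CPM values, centred per gene, over the 6 libraries. Nearest to Ccnd1 were D16Ertd472e (distance 0.07), Gm17167 (0.08) and Kyat3 (0.08). Nearest to Ccnd3 were Baiap2 (0.03), Crmp1 (0.04) and Ak4 (0.04), and nearest to Ccne1 Gpn2 (0.03), Pgs1 (0.04) and Tax1bp3 (0.04). None of these 9 belongs to the lists used here. All had log2 fold changes between -0.72 and -0.42, which follows from picking them by likeness over the same 6 libraries.

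Some of the E2F factors, with their DP partners, are bound by the pocket proteins. Of 10 E2F and DP genes tested, 3 rose and 0 fell, with a median log2 fold change of 0.14 against 0.02 over all genes tested. Counted in either direction, 3 in 10 is not far from the 26.5% of all genes called. For rises alone the share over all genes was 12.1%, and the difference from it was not tested. The genes that rose were E2f5 (0.34, adjusted p = 0.0353), Tfdp1 (0.24, adjusted p = 0.00741) and E2f4 (0.18, adjusted p = 0.00561), where E2f4 and E2f5 encode factors that act mainly with pocket proteins as repressors and Tfdp1 a DNA-binding partner. The activator E2f1 had 82.0 ± 4.23 CPM in wild type and 82.0 ± 1.18 CPM in the knockout (SD, n = 3). E2f4 and Tfdp1 lie on chromosome 8, whose median was 0.17, with 0.14 and 0.22 within 5 Mb of them, and the part of the chromosome in the result was not tested. DESeq2 and limma on log2(TPM + 1) called 0 of the 10, and edgeR called 1 without knockout replicate 3, without wild-type replicate 2 or with a length offset. At an unadjusted p below 0.05 edgeR had 4. Such p-values were common: among all 12891 tested genes Cdk6, at an unadjusted p of 0.0129 (edgeR), stood at place 3399. Ccnd2, at 0.0763, stood at place 5332.

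Of 25 genes known as E2F targets in DNA replication and nucleotide supply, 6 fell and 0 rose (median -0.07), where 26.5% of all genes were called and 14.4% fell. The share of the list that was called in either direction is thus near the background, while the difference in falls alone was not tested. Chaf1b, a chromatin assembly factor subunit, fell most (-0.45, adjusted p = 2.28e-07), followed by Tk1 (-0.28, adjusted p = 5.21e-04), thymidine kinase, whose call was lost on both TPM scales (adjusted p up to 0.371). The other 4 that fell did so by 0.22 to 0.28 on the log2 scale. The summed level was 4197 to 4261 CPM in wild type and 3970 to 4116 CPM in the knockout, without overlap, as 39.7% of single tested genes also showed. DESeq2 called 4 falls. On log2(TPM + 1) the count was 3 (Chaf1b, Mcm7 and Pola1, the last not among the 6) and the median 0.03, where the median of all genes was 0.10. Tk1 lies on chromosome 11, whose median was -0.12. Without knockout replicate 2, 4 genes fell and 1 rose, and without wild-type replicate 2, 4 fell and 0 rose.

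CDK inhibitors hold these kinases back. Of 6 tested, 2 rose and 0 fell, where 12.1% of all tested genes rose and 14.4% fell. The median of the 6 was -0.10 (0.08 on log2(TPM + 1), where 1 fell). Over all tested genes it was 0.02 (0.10 on log2(TPM + 1)), so the list median lay below it on both scales. Cdkn1b, which encodes p27, rose from 12.8 ± 2.41 to 25.3 ± 3.87 CPM (SD, n = 3), a log2 fold change of 1.00 (edgeR, adjusted p = 1.7e-06). Cdkn2a rose by 0.29 on the log2 scale (adjusted p = 0.0135), a call lost without knockout replicate 1 or 2 and without wild-type replicate 1 or 2. DESeq2 called only Cdkn1b, which lies on chromosome 6 (median 0.21 over 28 genes within 5 Mb). Cdkn1a, which encodes p21, had 172 ± 8.25 CPM in wild type and 163 ± 3.87 CPM in the knockout (SD, n = 3; adjusted p = 0.207).

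**Figure D5:**
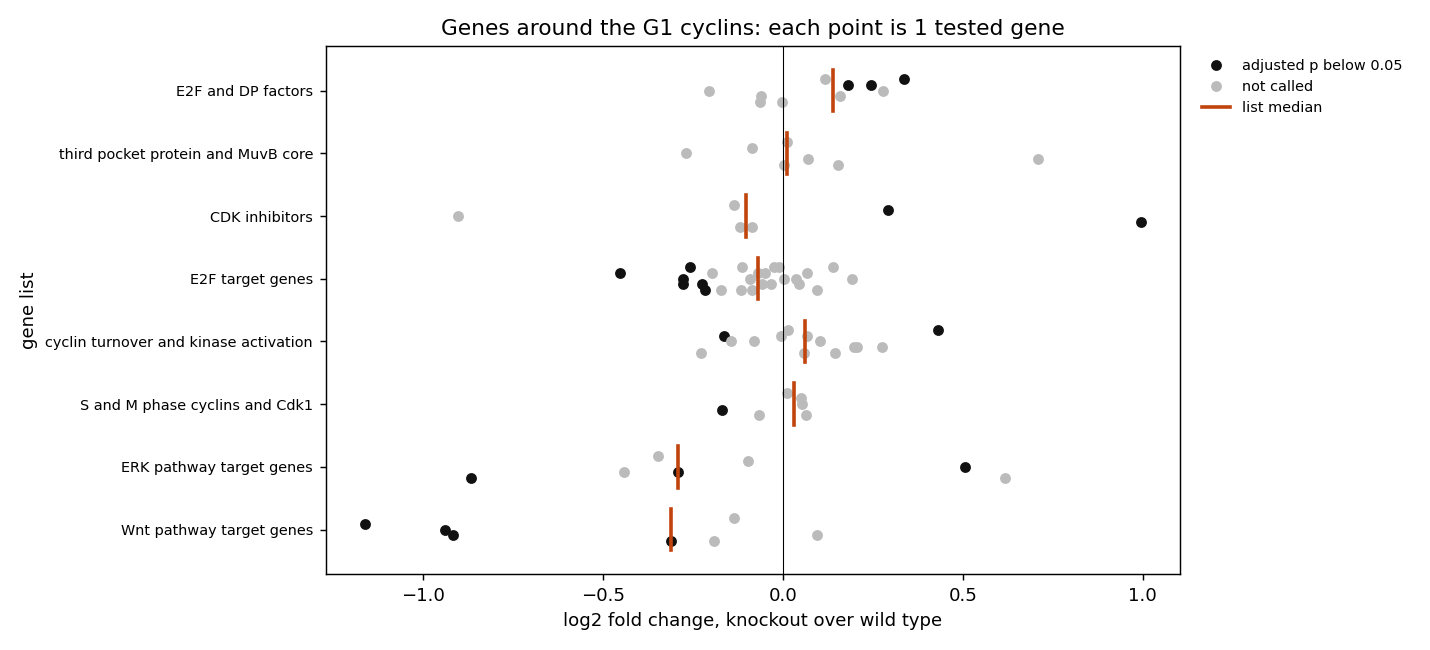
Log2 fold change, knockout over wild type (horizontal axis), of the tested genes in 8 lists around the G1 cyclins; each point is 1 gene, black where the adjusted p is below 0.05 and grey otherwise, and the orange line is the list median. Calls are on the right for E2F factors and CDK inhibitors, on the left for E2F targets and Wnt targets, and on both sides for cyclin turnover and ERK targets.

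Of 14 genes for cyclin turnover and kinase activation 1 rose and 1 fell (median 0.06), where 12.1% of all tested genes rose and 14.4% fell. Cul4a, a ubiquitin ligase scaffold, rose (0.43, adjusted p = 9.94e-04), where the median within 5 Mb was 0.22. Cks1b, a cofactor of the ligase that degrades p27, fell (-0.16, adjusted p = 0.0131), a call that held in 10 of 16 alternatives. It was lost on log2(TPM + 1) (adjusted p = 0.628), on log2(TPM + 0.1), with a length offset, with DESeq2 (adjusted p = 0.0832), when replicate 3 of the knockout was left out, and when replicate 2 of wild type was. Leaving out replicate 2 of the knockout gave 2 falls. Fbxw7, which encodes the ligase subunit that recognises cyclin E, was not called (-0.23, adjusted p = 0.141), and neither was Skp2 (0.21, adjusted p = 0.208). Of the 7 genes of the MuvB complex with Rbl2 (the third pocket protein) and Mybl2, edgeR called 0, DESeq2 0 and limma on log2(TPM + 1) 0. In edgeR 2 had an unadjusted p below 0.05, as did at least 3399 of the 12891 genes tested. Without knockout replicate 2, 1 of the 7 was called higher, and with a length offset 1 was called lower.

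Cyclin genes of S and M phase were tested together with Cdk1. Of the 6 genes, Ccnb1, a mitotic cyclin, fell (-0.17, adjusted p = 0.00544, edgeR) and 0 rose, with a median of 0.03. The shares over all tested genes were 14.4% falling and 12.1% rising. Cyclin A, encoded by Ccna2 and a partner of Cdk2 in S phase, had 137 ± 3.75 CPM in wild type and 143 ± 3.28 CPM in the knockout (SD, n = 3; 0.06, adjusted p = 0.374). Cdk1, the mitotic kinase, had a log2 fold change of 0.01 (adjusted p = 0.888). The call of Ccnb1 was lost on both TPM scales (largest adjusted p = 0.157) and without wild-type replicate 3.

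Ccnd1 is known as a target of the ERK and Wnt pathways, so genes with the same known inputs were set beside it. Both groups were grown with the 2i inhibitors of the MEK-ERK pathway and GSK3, so these levels do not show signalling without inhibitors. Of 10 ERK targets listed, Egr1 (0 to 3 counts), Fos (4 to 14) and Fosl1 (0) had too few counts to be tested. Of the 7 tested, Etv4 (-0.87, adjusted p = 5.07e-08, edgeR) and Etv5 (-0.29, adjusted p = 3.67e-05), transcription factors induced by ERK, fell. Spry2 (0.51, adjusted p = 0.00131), a feedback inhibitor, rose, and the median of the 7 was -0.29. Among all tested genes 14.4% fell and 12.1% rose. The call of Etv5 was lost on both TPM scales. Against the same shares, 4 of 7 tested Wnt targets fell and 0 rose (median -0.31). These were Notum (-1.16, adjusted p = 2.92e-09), Sp5 (-0.94, adjusted p = 0.0377), Lef1 (-0.92, adjusted p = 0.00182) and Tcf7 (-0.31, adjusted p = 0.00827), with 2 falls under DESeq2 or without knockout replicate 1. The calls of Notum and Lef1 held in all 16 alternatives, that of Tcf7 in 11 and that of Sp5 in 5. Notum and Tcf7 lie on chromosome 11. Axin2, a widely used Wnt reporter gene, was not called (-0.19, adjusted p = 0.344). The summed Wnt target level was 106.5 to 116 CPM in wild type and 74.4 to 77.3 CPM in the knockout, without overlap. Single genes showed no overlap in 39.7% of all those tested.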

How the data were processed

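RNA was measured in 3 Hoxd12-/- and 3 wild-type libraries, grouped and numbered by their titles. Per the file headers, the authors deposited for each gene a transcript length, an expected count (an estimated count that need not be whole), TPM and FPKM. Both TPM and FPKM, as deposited, divide by length and library size, and FPKM entered no test. Bowtie 0.12.2 and the builds mm10 and mm8 are listed, without roles, in the submitters' processing notes. The sources used here do not name the quantifier or strand setting. All 55450 identifiers matched GENCODE M21 (GRCm38), the source of symbols and coordinates.

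Expected counts were rounded. edgeR 4.0.16 (R 4.3.3) used TMM, filterByExpr and a quasi-likelihood test of genotype without covariates; Benjamini-Hochberg adjustment ran over 12891 genes, and calls were below 0.05. SEs derive from the test's F value. Alternatives were RLE scaling, DESeq2 1.42.0, other count filters, a replicate block, a length offset, log2(TPM + 1) and log2(TPM + 0.1) in limma 3.58.1, other gene sets for scaling, and each library left out. The main edgeR fit was run on simulated counts, as was limma with a pseudocount of 1 on values without transcript lengths. The other alternatives and steps were not checked in this way. Depth limits each level to 3 counts.

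Named genes were the 10 members; in each list of related genes all called members if at most 4, otherwise the 2 largest rises and 2 largest falls at a mean of at least 1 CPM; and the 3 nearest profiles to Ccnd1, Ccnd3 and Ccne1. Others named were chosen after their values were seen. The genes and lists were chosen with earlier results of these data known.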

Additional observations from a re-analysis of the deposited data

How the results depend on the processing

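Ccnd1, Ccnd3 and Ccne1 kept their direction and their call in all 16 alternatives, with log2 fold changes of -0.76 to -0.56, -0.57 to -0.37 and -0.51 to -0.33. The call of Cdk6 was lost with DESeq2 (-0.32), no count filter (-0.31), a filter of 1 CPM (-0.31), a length offset (-0.45), limma on log2(TPM + 1) (-0.30) and log2(TPM + 0.1) (-0.34), and scaling without chromosomes 6, 8 and 11 (-0.31). Leaving out each library gave -0.38 to -0.17 for Cdk6 and -0.14 to 0.16 for Rbl1, which turned negative without wild-type replicate 2. Rb1 was called with a length offset (0.98) and on both TPM scales (0.72 and 1.08), and Ccnd2 turned positive there (0.10, 0.14 and 0.23). The cause of these changes was not tested. The number of genes called was 3420, against 1988 with DESeq2, 1856 on log2(TPM + 1) and 1824 on log2(TPM + 0.1). Replicate numbers did not pair the libraries (correlations of same-numbered deviations 0.004, 0.04 and 0.02); with a replicate block 3 of the 10 genes were called, Cdk6 (-0.31) at adjusted p = 0.0503, and 3353 genes in all. Counts of 4 to 46 limit Ccnd2, Ccne2 and Rb1.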
